A study of Mus musculus with 35 samples.

Results

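Type VI collagen and the fibril-associated collagens were followed through 6 genes: Col6a1, Col6a2 and Col6a3, which encode the chains of the common type VI heterotrimer, and Col12a1, Col14a1 and Col16a1, which encode fibril-associated collagens. The genes were taken by name, as every probe that carried one of these names in the scanner files. They had 12 probes among the 41174 on the array, and all 6 genes were among the 18687 genes tested. RNA came from the suprarenal aorta of male mice lacking apolipoprotein E (ApoE-/-), in which an infusion of angiotensin II (Ang II) gives aneurysms of this segment. Ang II was given at 1000 ng/kg/min, or saline vehicle without it, from an Alzet osmotic minipump placed under the skin at 12 to 14 weeks of age. Mice were killed after 7, 14 or 28 days. There was 1 aorta on each of 35 two-colour arrays, 17 from saline mice (6, 6 and 5 at the 3 times) and 18 from Ang II mice. The Ang II arrays were 4 from aneurysms labelled non-dissected at 7 days, 3 from dissected aortas at 7 days, 5 from aneurysms at 14 days and 6 from aneurysms at 28 days. The labels do not say whether the aneurysms at 14 and 28 days had dissected. All mice, controls included, carried the ApoE-/- genotype, so no value describes a wild-type aorta.

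Type VI collagen assembles inside the cell from 3 different chains into dimers and tetramers, and outside it forms beaded microfilaments around cells and between interstitial collagen fibrils. Types XII, XIV and XVI have interrupted triple helices. They do not build fibrils of their own, and types XII and XIV lie on the surface of fibrils made of type I collagen, where they bind neighbouring matrix molecules. In arteries these collagens belong mainly to the adventitia and the interstitial matrix, and fibroblasts and smooth muscle cells make them.

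Each gene was read through the probe that was brightest over all arrays. These 6 probes lie, on mouse build mm8 as the file headers give it, at chr10:76152870-76152929 on the minus strand for Col6a1, chr10:76039902-76039961 minus for Col6a2, chr1:92597492-92597551 minus for Col6a3, chr9:79385147-79385206 minus for Col12a1, chr15:55350660-55350719 plus for Col14a1 and chr4:129601405-129601464 plus for Col16a1. Exon and UTR positions on that build were not used here. The first 30 bases of each probe are shown, 5′ to 3′, because they are the sequence that every level below was read from.
Col6a1: tccatgctcaacatgaagcagaccttctca
Col6a2: ttctttgacaggttcatccgctggatctgt
Col6a3: atggtcccagttttctggattagacttcga
Col12a1: gcagctgtctattcagaaagggcctttatc
Col14a1: caaaaccatagagtctgttttccagtagtc
Col16a1: cccacactgagatgaaggactctactagga

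A level below is the log2 ratio of the aorta signal to a universal mouse reference RNA on the same array. A ratio is compared only between arrays for the same gene, since the reference holds each gene at its own level. Between 45.0 and 84.8 percent of an array's spots (median 57.1) were well above background for the aorta, and Ang II replicate 4 at 14 days had the highest share. All 6 probes were well above background on 35 of 35 arrays and none of them was saturated. The reference was dim for Col14a1, above background on 32 of 35 arrays, so its high ratios rest on a small denominator. Defining markers of smooth muscle (Myh11, Acta2, Tagln, Cnn1), fibroblasts (Pdgfra, Dpt) and endothelium (Pecam1, Cdh5) were above background on 35 of 35 arrays. Scans fell on 2 days, with all 3 dissected aortas and only 1 of the 4 non-dissected Ang II aortas of 7 days on the second.

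At 7 days all 6 genes were higher in Ang II aortas than in saline aortas, by 3.05-fold to 9.97-fold, and for all 6 every Ang II array lay above every saline array. Across all genes tested, 14.5 percent passed as higher in this comparison and 12.2 percent had every Ang II array above every saline array. The median log2 change of the 6 genes was 2.45, against -0.0032 over all genes. Tests are limma's moderated test with Benjamini-Hochberg adjustment over all genes, called at an adjusted p under 0.05. In bulk tissue, more cells of a type cannot be told apart from more RNA per cell.

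Among the chains of type VI collagen, Col6a3, whose long chain carries most of the N-terminal globular repeats of the molecule, moved most. Its log2 ratio was 4.26, 4.15, 3.19 and 3.24 on the 4 Ang II arrays at 7 days and ran from -1.16 through a median of 0.41 to 2.04 on the 6 saline arrays. The lowest Ang II array was thus above the highest saline array, and the saline arrays were the more scattered group. The difference was 3.31 (SE 0.59, 9.89-fold, adjusted p = 1.49e-04).

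Col6a1 and Col6a2 encode the shorter chains, which are made from neighbouring genes on chromosome 10. Col6a1 stood at 0.63, 0.42, -0.39 and -0.25 in Ang II aortas and from -2.29 through -1.52 to -0.50 in saline aortas. The groups did not overlap, though the gap between them was about 0.1 on the log2 scale. Col6a2 stood at 1.13, 1.59, 0.66 and 1.42 in Ang II aortas and from -0.96 through -0.57 to 0.31 in saline aortas, again without overlap. The differences were 1.61 for Col6a1 (SE 0.43, 3.05-fold, adjusted p = 6.43e-03) and 1.62 for Col6a2 (SE 0.34, 3.07-fold, adjusted p = 1.02e-03).

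Among the fibril-associated collagens, Col12a1 encodes the type XII chain, which is known from tendon, ligament and other tissue under tension. It stood at 1.91, 3.12, 2.23 and 1.60 in Ang II aortas at 7 days and from -1.46 through -1.14 to -0.77 in saline aortas. Its saline values had the smallest spread of the 6 genes, and the groups were more than 2 log2 units apart. The difference was 3.32 (SE 0.33, 9.97-fold, adjusted p = 3.28e-08).

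Col14a1, the type XIV chain, whose product is known as undulin, stood at 7.53, 7.48, 7.27 and 7.31 in Ang II aortas and from 2.51 through 5.30 to 5.74 in saline aortas. The 4 Ang II arrays were nearly level, with an SD of 0.13, and the saline value of 2.51, replicate 5, lay far below the other 5. The difference was 2.52 (SE 0.62, 5.75-fold, adjusted p = 3.39e-03), and 2.05 without that array (adjusted p = 9.42e-03). Col16a1, the type XVI chain, stood at 0.52, 1.23, -0.08 and 0.74 in Ang II aortas and from -2.29 through -1.85 to -1.22 in saline aortas. It was separated between the groups by more than 1 log2 unit. The difference was 2.38 (SE 0.37, 5.20-fold, adjusted p = 2.89e-05).

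The direction at 7 days was the same within both scan days. Within the first day, with 3 arrays a group, 4 of the 6 genes passed the test, and Col6a1 (1.18, adjusted p = 0.0842) and Col14a1 (1.85, adjusted p = 0.0656) did not. Within the second day the changes ran from 1.58 (Col6a2) to 3.76 (Col6a3), but they rest on 1 Ang II array against 3 saline arrays. The fit takes that lone array to vary like the other groups, so the 2 calls it gives, Col6a3 and Col12a1 (3.47), describe that array.

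**Figure D1:**
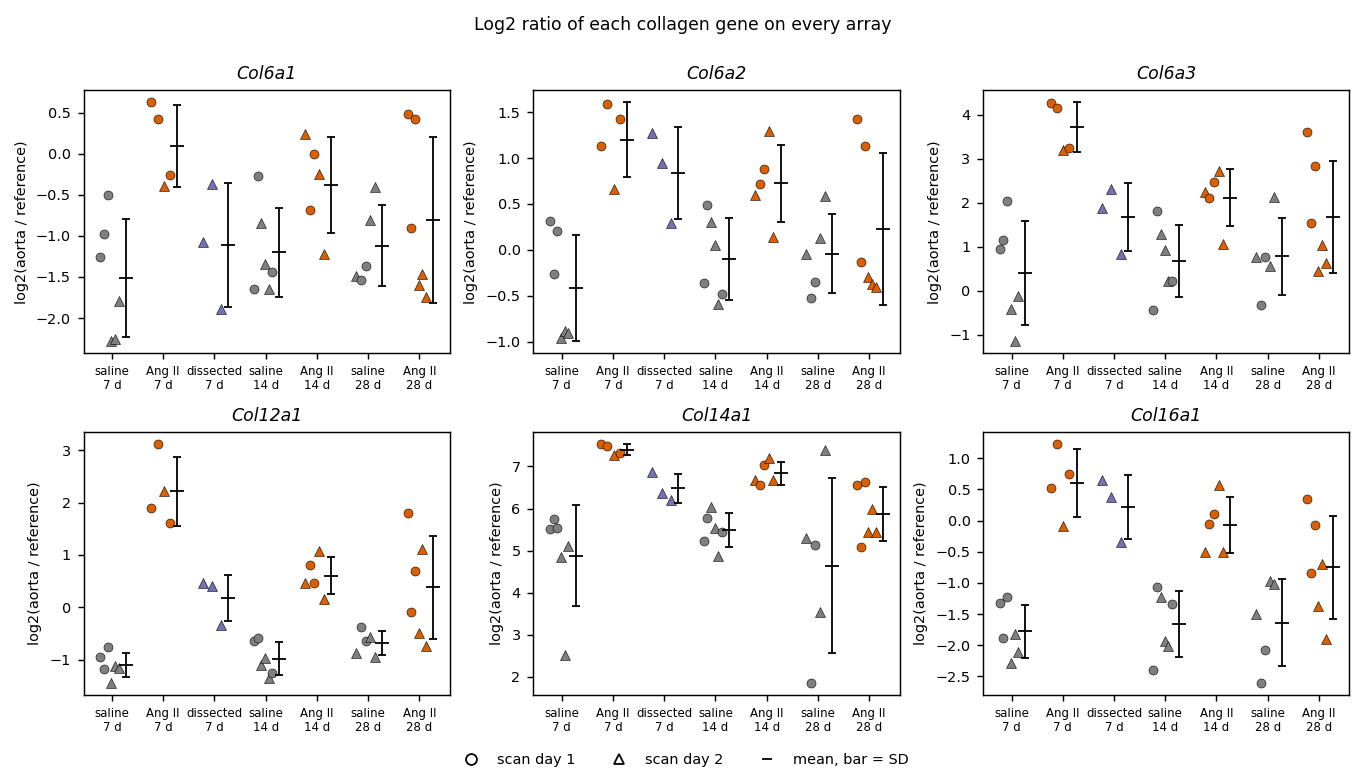
Log2 ratio of aorta to reference RNA (vertical axis) for the 6 collagen genes in the 7 groups (horizontal axis); each point is 1 array, its shape gives the scan day, and the bar and whiskers are the group mean and SD. In each panel the Ang II arrays of 7 days lie above all saline arrays of 7 days, and the Ang II arrays of 28 days spread widest among the Ang II groups.

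The genes did not change by the same amount. For each array the difference between the log2 ratios of a pair of genes was taken, so that anything that moves both genes equally cancels. Its change with Ang II was tested by an exact permutation test over the arrays, two-sided and adjusted over the 15 pairs. Scan day was not part of this test, and it need not cancel. In saline aortas of 7 days Col6a3 averaged 1.38 on the first scan day and -0.57 on the second, and Col6a1 -0.91 and -2.11. A difference of this kind has no meaning as a level, since each gene has its own reference, and only its change between groups was read. At 7 days 6 of 15 pairs passed, in a design whose smallest p is 0.00476.

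Within type VI collagen, Col6a1 minus Col6a2 was -1.09 ± 0.37 (SD, n = 6) in saline and -1.10 ± 0.48 (SD, n = 4) in Ang II aortas, a change of -0.007 (exact permutation p = 0.995). Col6a1 minus Col6a3 was -1.91 ± 0.50 (SD, n = 6) in saline and -3.61 ± 0.098 (SD, n = 4) in Ang II aortas, a change of -1.69 (exact permutation, adjusted p = 0.0179). Col6a2 minus Col6a3 changed by a like amount, -1.69 (exact permutation, adjusted p = 0.0357). The ratio of Col6a3 to the first chain was thus higher on each of the 4 Ang II arrays than on any of the 6 saline arrays, and the pair of shorter chains kept theirs within the spread between arrays.

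Col12a1 also moved by more than the shorter chains: Col6a2 minus Col12a1 changed by -1.70 and Col6a2 minus Col16a1 by -0.76 (exact permutation, adjusted p = 0.0179 for both). Col12a1 minus Col16a1 changed by 0.94 (exact permutation, adjusted p = 0.0286). Col6a3 and Col12a1, members of different collagen classes, did not differ in their change beyond the spread (exact permutation p = 0.986). At 14 days 3 of 15 pairs passed, all with a smaller change of Col6a2: -0.76 against Col12a1, -0.53 against Col14a1 and -0.76 against Col16a1 (exact permutation, adjusted p = 0.0433 for each). At 28 days none of the 15 passed after adjustment and 2 had an unadjusted exact p under 0.05.

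**Figure D2:**
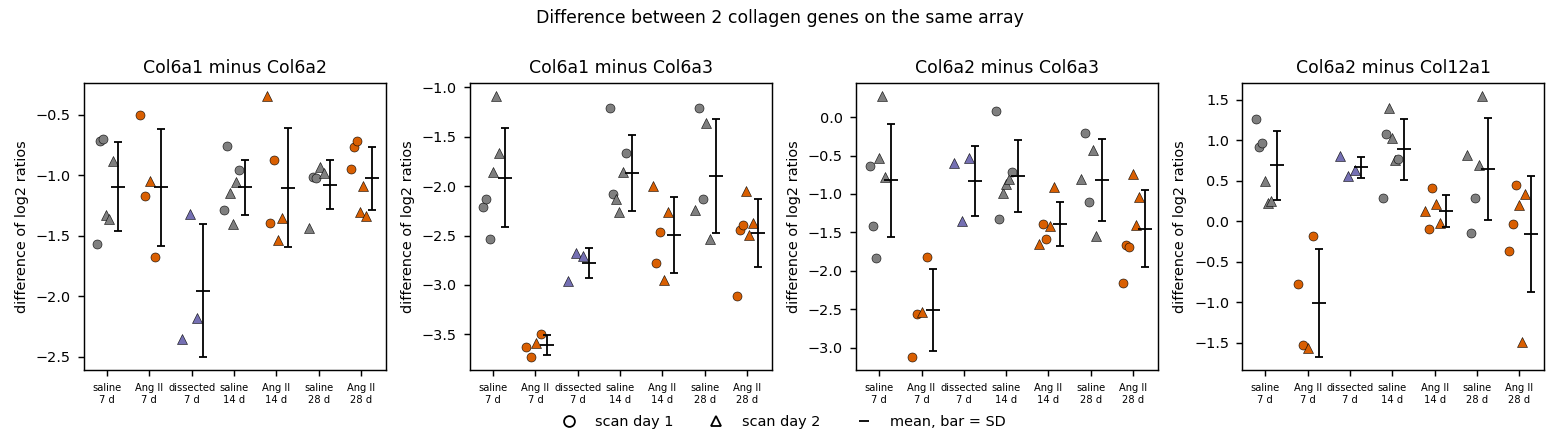
Difference between the log2 ratios of 2 collagen genes on the same array (vertical axis) by group (horizontal axis), for 4 pairs; points are arrays, shapes give the scan day, and bars and whiskers are means and SDs. Col6a1 minus Col6a2 stays near -1.1 in saline and Ang II aortas at 7 days, whereas Col6a1 minus Col6a3 moves from a mean of -1.91 to -3.61.

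For the chains of type VI collagen, whose genes moved together in part, the 250 bases before the annotated start are shown from RefSeq (GRCm38.p6), in which 4 of the 6 genes had an entry. Capitals mark matches, on either strand, to the C-rich motif CCCTCCC, to the GC box motif GGGCGG and to the AP-1 motif TGANTCA. The windows are chr10:76726045-76726294 minus for Col6a1, chr10:76623631-76623880 minus for Col6a2 (the first of 2 annotated starts) and chr1:90843972-90844221 minus for Col6a3.
Col6a1: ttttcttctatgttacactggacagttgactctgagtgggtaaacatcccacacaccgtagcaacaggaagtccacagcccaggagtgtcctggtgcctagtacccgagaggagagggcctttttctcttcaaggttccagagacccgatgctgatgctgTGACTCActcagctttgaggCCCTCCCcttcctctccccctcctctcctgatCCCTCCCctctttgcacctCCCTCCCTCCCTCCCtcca
Col6a2: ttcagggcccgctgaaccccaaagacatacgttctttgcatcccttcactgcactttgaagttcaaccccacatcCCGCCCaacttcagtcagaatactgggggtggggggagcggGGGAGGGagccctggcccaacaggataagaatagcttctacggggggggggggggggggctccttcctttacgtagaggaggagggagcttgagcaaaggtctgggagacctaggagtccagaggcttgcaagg
Col6a3: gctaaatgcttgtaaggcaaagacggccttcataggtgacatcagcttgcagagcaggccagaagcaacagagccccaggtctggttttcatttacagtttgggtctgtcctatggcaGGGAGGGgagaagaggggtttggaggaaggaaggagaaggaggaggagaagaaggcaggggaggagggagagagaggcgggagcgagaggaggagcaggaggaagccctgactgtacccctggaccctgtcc
CCCTCCC was found 5 times in the window of Col6a1, some matches overlapping, with the nearest 5 bases before the start, and once on the other strand in those of Col6a2 and Col6a3. Of all 32851 promoter windows of this length, 19.7 percent hold it. TGANTCA was in the window of Col6a1 and in 6.75 percent of all windows. GGGCGG was in the window shown for Col6a2 and in that of Col16a1, and in 32.7 percent of all. TATAAA was in none of the 4, against 12.4 percent of all, and CCAAT was in that of Col16a1 alone among them, against 33.8 percent. The matches describe letters, and no binding was measured.

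At 14 days all 6 genes were higher on average in Ang II aortas and 2 passed the test, where 1.12 percent of all genes tested passed as higher. The median change of the 6 was 1.40, against 0.0014 over all genes. Col12a1 stood at 0.47, 0.81, 0.47, 1.08 and 0.16 in Ang II aortas and from -1.35 through -1.04 to -0.58 in saline aortas, with no overlap. Its difference was 1.58 (SE 0.31, 3.00-fold, adjusted p = 7.74e-03).

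Col16a1 stood at -0.50, -0.06, 0.11, 0.56 and -0.50 in Ang II aortas and from -2.40 through -1.64 to -1.07 in saline aortas, also with no overlap. Its difference was 1.58 (SE 0.34, 3.00-fold, adjusted p = 0.0145), and it no longer passed without Ang II replicate 3 (adjusted p = 0.0519) or replicate 4 (1.42, adjusted p = 0.0698). Replicate 4 is the array with 84.8 percent of spots above background. Col14a1 stood at 6.68, 6.57, 7.04, 7.21 and 6.68 in Ang II aortas and from 4.88 through 5.49 to 6.03 in saline aortas; these groups did not overlap either, but the change of 1.36 did not pass. It did pass without background subtraction (1.31, adjusted p = 0.0255) and with only the groups compared in the fit (adjusted p = 0.0176). Across all genes 1.46 percent had every Ang II array above every saline array at this time, against 3 of these 6.

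The chains of type VI collagen did not pass at 14 days. Col6a3 stood at 2.24, 2.10, 2.46, 2.71 and 1.05 against a saline range of -0.44 to 1.82, a change of 1.44. Col6a1 stood at 0.25, -0.68, 0.00, -0.24 and -1.22 against -1.65 to -0.27, and Col6a2 at 0.60, 0.71, 0.88, 1.30 and 0.14 against -0.59 to 0.49. In all 3 genes Ang II replicate 5 was the array that reached into the saline range or, for Col6a1, one of 2. Col6a1 and Col6a2 each changed by 0.82. Within each scan day the changes of Col12a1 (1.47 and 1.71) and Col16a1 (1.63 and 1.57) were of like size, with 0 genes of the 6 passing on 2 or 3 arrays a group.

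At 28 days 0 of 6 genes passed limma's test, where 0.835 percent of all genes passed as higher. An unadjusted p under 0.05 was reached by 3 of the 6, and by 2829 of 18687 genes in either direction. The median change was 0.89, against 0.037 over all genes, and no gene was free of overlap. Col12a1 stood from -0.74 through 0.30 to 1.80 in 6 Ang II aortas and at -0.87, -0.38, -0.64, -0.57 and -0.95 in saline aortas, a change of 1.06 (95% interval 0.42 to 1.70, adjusted p = 0.100). Its 6 Ang II arrays spanned from within the saline range to far above it. Without Ang II replicate 6, the lowest of them, Col12a1 passed (1.29, adjusted p = 0.0338).

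Col14a1 changed by 1.22 (95% interval 0.039 to 2.40), with saline arrays at 5.31, 1.84, 5.13, 3.54 and 7.39 and Ang II arrays from 5.09 through 5.72 to 6.64. The saline group was the more scattered: it held both the lowest and the highest value. The change was 0.52 without saline replicate 2 and 1.91 without saline replicate 5, and it passed in neither case. Col16a1 changed by 0.88, Col6a3 by 0.90, Col6a1 by 0.32 and Col6a2 by 0.27.

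The scan days parted these values. Within the first day, with 3 Ang II and 2 saline arrays, the changes at 28 days were 1.45 for Col6a1, 1.25 for Col6a2, 2.43 for Col6a3, 1.31 for Col12a1, 2.61 for Col14a1 and 2.16 for Col16a1. Within the second day, with 3 arrays a group, they were -0.71, -0.58, -0.45, 0.76, 0.22 and -0.15 in the same order. No gene passed within either day. The chains of type VI collagen and Col16a1 thus had opposite signs on the 2 days, and Col12a1 and Col14a1 were higher on both. Mean log2 ratios of marker lists in the same 6 Ang II aortas also differed by day. That of fibroblasts was 1.94, 1.22 and 2.27 for the replicates of the first day and 0.82, 1.45 and 1.07 for those of the second, so that the days overlapped. The score of contractile smooth muscle was 2.87, 2.50 and 3.54 on the first day and 1.98, 2.14 and 1.98 on the second, with no overlap. The macrophage score, at 1.80, 1.13 and 2.23 against 1.95, 2.22 and 1.38, was mixed. The part of scan day and of cell makeup in these values was not tested.

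**Figure D3:**
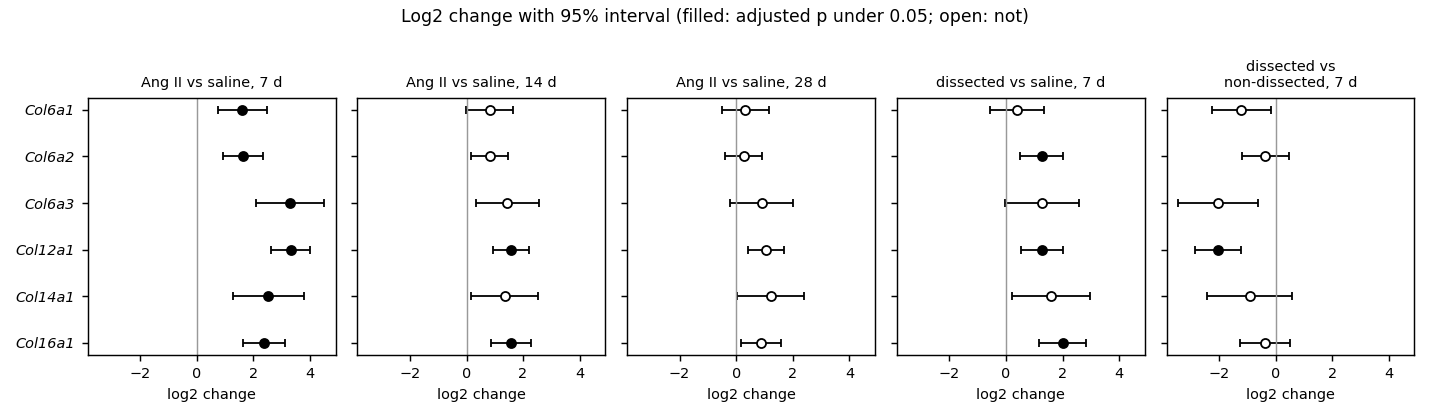
Log2 change of each of the 6 genes (horizontal axis) with its 95% interval, one panel for each comparison; filled points passed at an adjusted p under 0.05. All 6 intervals lie above 0 at 7 days, those of Col12a1 and Col16a1 are filled at 14 days, and none is filled at 28 days.

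Whether the effect of Ang II itself differed between times was tested as the difference of the differences. It was smaller at 28 than at 7 days for Col12a1, with a difference of -2.26 on the log2 scale (SE 0.46, adjusted p = 5.89e-03), and 1.97 percent of all genes passed in this direction. For the other 5 genes this difference ran from -2.41 (Col6a3) to -1.29 (Col6a1) and did not pass. The scan days gave different values. Within the first day the difference was -1.86 for Col12a1, and 0.28 for Col6a1, -0.051 for Col6a2, -0.072 for Col6a3, 0.76 for Col14a1 and -0.15 for Col16a1, none past the test. Within the second day, which holds 1 Ang II array of 7 days, it was -2.71 for Col12a1 (adjusted p = 0.0812), -4.21 for Col6a3 (adjusted p = 0.0424), and -2.43, -2.16, -2.90 and -2.15 for Col6a1, Col6a2, Col14a1 and Col16a1. Col12a1 thus passed within neither day, though it did with scan day as a block (-2.20, adjusted p = 5.64e-03). Without Ang II replicate 1 at 28 days 4 genes passed, Col6a2, Col6a3 and Col16a1 with Col12a1, and 2 passed without saline replicate 3 at 7 days (Col6a3 added) or saline replicate 2 at 28 days (Col16a1 added). Between 14 and 7 days Col12a1 differed by -1.73 (adjusted p = 0.0561) and none of the 6 passed, against 1.02 percent of all genes in either direction. Here 2 of the 6 and 3803 of 18687 genes had an unadjusted p under 0.05. Between 28 and 14 days 0 of 6 and 0 of 18687 genes passed limma's test, with 0 of the 6 and 1358 of all genes at an unadjusted p under 0.05. The saline aortas did not pass for any of the 6 genes across the 3 times, where 0.61 percent of all genes did, and 0 of the 6 had an unadjusted p under 0.05.

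In the order of group means, non-dissected Ang II aortas of 7 days were highest for all 6 genes. Neighbours in that order mostly overlapped. The ranges of arrays were apart between the first and the next group, Ang II at 14 days, for Col6a3, Col12a1 and Col14a1. Further down, they were apart between dissected aortas and saline at 28 days for Col12a1. The share of all genes with ranges apart between these groups was not worked out. The neighbours were ranked on these same means, so the gaps are description only.

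Dissected aortas at 7 days held lower levels than non-dissected ones for all 6 genes on average, and 1 of them passed the test. Col12a1 stood at 0.47, 0.40 and -0.34 in the 3 dissected aortas, below all 4 non-dissected values (lowest 1.60) and above all 6 saline values (highest -0.77). Its difference from non-dissected aortas was -2.04 (SE 0.39, adjusted p = 1.86e-03), where 4.97 percent of all genes passed as lower. Col6a3 stood at 1.88, 2.31 and 0.83, also below all non-dissected values, but inside the saline range for 2 of 3. Its difference was -2.04 and did not pass (adjusted p = 0.0656).

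Col14a1 stood at 6.87, 6.36 and 6.20 in dissected aortas, below all 4 non-dissected values and above all saline values, with a difference of -0.92 from the former that did not pass. Across all genes 15 percent had every dissected array below every non-dissected one, against 3 of these 6. Col6a1 stood at -1.08, -0.37 and -1.88, a difference of -1.21 from non-dissected aortas (95% interval -2.25 to -0.17, adjusted p = 0.146). Col6a2, at 1.28, 0.95 and 0.30, and Col16a1, at 0.65, 0.37 and -0.35, overlapped with the non-dissected aortas; their differences were -0.36 (95% interval -1.19 to 0.47) and -0.38 (95% interval -1.27 to 0.51).

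With scan day as a block the difference of Col12a1 was -1.79 and still passed (adjusted p = 9.84e-03), and those of Col6a3 (-1.53), Col14a1 (-0.86), Col6a1 (-0.79), Col16a1 (-0.16) and Col6a2 (-0.057) did not. Only 1 non-dissected aorta was scanned on the day of the dissected ones, so values within that day rest on a lone array that the fit assumes to vary like the other groups. They were -2.05 for Col12a1, 0.18 for Col6a2 and 0.30 for Col16a1, and with such an arm a missed call (adjusted p = 0.141 for Col12a1) says little.

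Against saline aortas of 7 days, dissected aortas were higher for 3 of the 6 genes: Col16a1 by 2.00 (SE 0.40, 4.00-fold, adjusted p = 2.46e-04), Col12a1 by 1.28 (adjusted p = 6.55e-03) and Col6a2 by 1.26 (adjusted p = 9.39e-03). Of all genes 18.9 percent passed as higher here. Col14a1 (1.60, adjusted p = 0.0626), Col6a3 (1.27, adjusted p = 0.125) and Col6a1 (0.40) did not pass. With scan day as a block Col6a3 did pass (1.60, adjusted p = 0.0459), and Col14a1 did not (1.64, adjusted p = 0.0709). With the authors' deposited log2 ratios Col14a1 passed (1.39, adjusted p = 2.89e-03). Every dissected array lay above every saline array for 3 of the 6, and for 17.2 percent of all genes. Col6a2 no longer passed without dissected replicate 1 (1.04, adjusted p = 0.0769), whereas Col14a1 passed without saline replicate 2 (1.78, adjusted p = 0.0484) and Col6a3 without saline replicate 3 (1.59, adjusted p = 0.0478). Within the second scan day, with 3 arrays a group, 5 of 6 passed, all but Col6a1 (1.00, adjusted p = 0.0716), with Col6a3 at 2.24 and Col14a1 at 2.32. No share of all genes is given for that fit, so this count is not read against one. In the full fit 6819 of 18687 genes passed in either direction.

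With median centring in place of loess the median of all genes shifts by -0.361 in this comparison and by -0.293 against non-dissected aortas, and 2 of the 3 calls against saline are then lost: Col6a2 falls to 0.53 (adjusted p = 0.283) and Col12a1 to 0.49 (adjusted p = 0.390). Col6a1 then has the opposite sign, -0.29, and does not pass. This comparison shares the dissected arrays with the one before it and the saline arrays with the comparison at 7 days. In within-array differences 0 of 15 pairs passed against saline after adjustment (4 at an unadjusted exact permutation p under 0.05, the smallest possible being 0.0119). Against non-dissected aortas 0 of 15 passed too (3 at an unadjusted exact permutation p under 0.05, the smallest possible being 0.0286). In both comparisons a lone pair at the smallest possible p could not pass the adjustment over 15 pairs, so these missed calls say little. The ranges of arrays were apart for 4 of 15 pairs against saline and for 6 of 15 against non-dissected aortas. No share over other gene pairs was worked out.

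Of the 6 genes, 5 had more than 1 probe. The further probe of Col6a2, 5577 bases upstream of the first on mm8, was above background on 35 of 35 arrays and rose by 1.75 at 7 days (SE 0.36, adjusted p over all probes = 7.91e-04), as its partner did. At 14 days it changed by 0.22 and at 28 days by -0.002, neither past the test, where 2.91 and 0.7 percent of single probes passed. In dissected against saline aortas it changed by 0.97 (adjusted p = 0.0532, where 35.4 percent passed). Of 27846 single probes tested, 25 percent passed at 7 days.

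Dim probes of Col6a3 and Col12a1 are shown in full, because they read the genes that changed most at other places and were near background on many arrays. The Col6a3 probes at chr1:92632986-92633045 and chr1:92644112-92644171 and the Col12a1 probe at chr9:79390205-79390264, all on the minus strand of mm8, read as follows.
Col6a3, 35435 bases upstream: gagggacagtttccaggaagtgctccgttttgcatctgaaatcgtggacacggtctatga
Col6a3, 46561 bases upstream: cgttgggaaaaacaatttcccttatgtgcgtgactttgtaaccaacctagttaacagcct
Col12a1, 4999 bases upstream: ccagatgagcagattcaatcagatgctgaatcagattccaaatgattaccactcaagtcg
The nearer Col6a3 probe was above background on 20 of 35 arrays, with 4 of 4 from non-dissected Ang II aortas and 2 of 6 from saline aortas at 7 days, 1 of 3 dissected, and 3 of 6 Ang II against 3 of 5 saline at 28 days. Its fitted change of 1.03 at 7 days (adjusted p over all probes = 4.93e-03) sets 4 measured arrays against a saline group in which 4 of 6 were not well above background. The farther one was above background on 0 of 35 arrays, so it gives no level. The Col12a1 probe was above background on 17 of 35 arrays: 4 of 4 Ang II and 0 of 6 saline arrays at 7 days, 5 of 5 and 1 of 6 at 14 days, 4 of 6 and 1 of 5 at 28 days, and 2 of 3 dissected.

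For that Col12a1 probe the saline arrays of 7 days were not well above background, so only a bound can be given. The signal was at least 2.96-fold higher in Ang II aortas, and this bound was not tested. Most arrays above background for the probe were Ang II arrays, so it is no separate support for the brighter probe. The bound compares, on the log2 scale, the mean aorta signal of 8.32 in Ang II aortas with 6.76 in saline aortas, where the saline value is the higher of each array's lowest signal above background and the probe's own. It can hold dye bias, since no dye was swapped. Between dissected and non-dissected aortas the fitted change of the probe was -1.10 (adjusted p over all probes = 0.0101, where 7.25 percent of probes passed). Only 2 of 3 dissected arrays were above background for it, so this value is no separate support for the brighter probe either. The further probe of Col14a1 was above background on 2 of 35 arrays and was not tested. That of Col16a1 was above background on 4 of 35, 2 of 4 Ang II arrays at 7 days and 2 of 5 at 14 days.

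**Figure D4:**
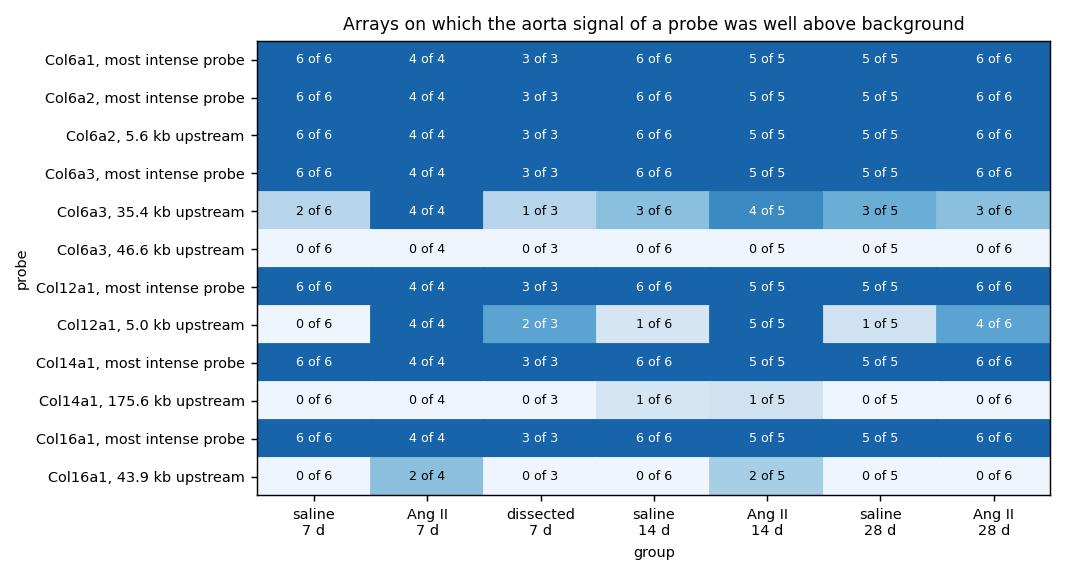
Number of arrays on which each of the 12 probes was well above background in the aorta channel, by group. Rows are probes with their distance in kilobases (kb) upstream of the brightest probe of the gene, and columns are the 7 groups with their number of arrays. The 6 brightest probes and the further Col6a2 probe fill every group, and the further Col12a1 probe goes from 0 of 6 in saline to 4 of 4 in Ang II aortas at 7 days.

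The 6 genes varied together from array to array. Over the 35 arrays, which share a platform and a reference RNA, Pearson's r was highest for Col6a1 with Col6a3 (0.92), Col6a2 with Col6a3 (0.91) and Col6a2 with Col16a1 (0.91), and lowest for Col12a1 with Col14a1 (0.61, and 0.11 after group means were taken off). These are descriptions of the same arrays that the comparisons used. Of 18546 other genes, those most like Col6a1 in this measure were Serpinf1, which encodes pigment epithelium-derived factor (0.93), Fam114a1 (0.93) and Igsf10 (0.93). For Col6a2 they were Ccdc80 (0.94), Antxr1, a receptor for type VI collagen (0.94), and Col5a1 (0.92).

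Col6a3 was most like Fstl1 (0.98), Sparc, a collagen-binding matricellular protein (0.97), and Clec11a (0.95). Col14a1 was most like Mfap5, a microfibril-associated glycoprotein (0.96), Plxdc2 (0.93) and Gpx7 (0.92), and Col16a1 like Col1a1 (0.96), the probe named NAP120816-001 (0.96) and Col5a1 (0.95). Col12a1 was most like the probe named NAP033385-1 (0.96), Pbp2 (0.93) and Col8a1 (0.92). NAP033385-1 lies 211 bases downstream of the Col12a1 probe on the same strand of chromosome 9. Serpinf1 and Mfap5 are also in the fibroblast marker list below.

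Other chains of type VI and of the fibril-associated class had no call at 7 days. Of 10 listed, 7 could be tested, and 0 passed limma's test in either direction, with 1 (Col28a1) at an unadjusted p under 0.05 and a median change of -0.20. They were Col6a4 (0.34), Col9a2 (-0.20), Col9a3 (0.067), Col19a1 (-0.79), Col20a1 (-0.016), Col22a1 (-0.20) and Col28a1 (-0.47); Col9a3 was above background on 4 arrays and Col28a1 on 11. At 14 days Col20a1 was higher by 0.53 (adjusted p = 0.0223), and in dissected against saline aortas Col19a1 was lower by 1.80 (a change of -1.80, adjusted p = 8.33e-03). Col6a5, Col6a6 and Col9a1 were not among the genes tested.

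The fibril-forming collagens, on whose fibrils types XII and XIV sit, rose at 7 days for 8 of 11 listed chains and fell for 0. Their median was 3.23, and 14.5 percent of all genes passed as higher. Col1a1, a chain of type I collagen, changed by 4.59 (SE 0.65, adjusted p = 8.05e-06), from -0.17 ± 1.29 (SD, n = 6) to 4.42 ± 0.47 (SD, n = 4). Col3a1 changed by 3.81, Col1a2 by 3.80 and Col5a1, whose product starts fibril assembly, by 3.61, all past the test. At 14 days 6 of 11 were higher and at 28 days 0 of 11, with medians of 1.71 and 0.97, where 1.12 and 0.835 percent of all genes passed. Dissected aortas were higher than saline aortas for 9 of 11, with Col1a1 at 3.48 and Col5a1 at 2.80, where 18.9 percent of all genes passed as higher. Against non-dissected aortas Col5a3 (1.33) and Col24a1 (1.36) were higher and Col5a2 (-2.04) lower, named after their values were seen.

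Among collagen receptors, of which 11 of 12 could be tested, 4 were higher at 7 days and 0 lower, with a median of 0.38. Of all genes 14.5 percent passed as higher at that time. They were Mrc2, an endocytic receptor that takes up collagen fragments (2.52), Itga11, an integrin chain for type I collagen (2.52), Lair1, an inhibitory receptor of leukocytes (2.06), and Antxr1 (1.54). At 14 days Mrc2 (1.34, adjusted p = 0.0142) and Lair1 (0.99, adjusted p = 0.0372) passed, and at 28 days Lair1 alone (1.31, adjusted p = 8.07e-03). Of all genes 1.12 and 0.835 percent passed as higher at these times. In dissected against saline aortas Mrc2 (2.08), Lair1 (2.44) and Antxr1 (1.15) were higher. Itga1 (-1.33) and Itgb1 (-1.13), which encode integrin chains, were lower. These 2 were also picked after their values were seen. Of 18687 genes 6819 passed in this comparison, 3526 of them higher.

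Matrix binding partners of these collagens, such as small leucine-rich proteoglycans, were higher at 7 days for 7 of 11 tested and lower for 0. Their median was 1.51, and 14.5 percent of all genes passed as higher. Fmod, which encodes fibromodulin, changed by 2.52, Lum (lumican) by 2.49, Comp (cartilage oligomeric matrix protein, which binds types XII and XIV) by 2.39 and Mfap2 by 2.18. In dissected aortas these 4 parted: Comp (2.90) and Mfap2 (1.97) were higher than in saline aortas, and Fmod (0.079) and Lum (0.046) did not pass. Lum stood at 4.56 ± 0.94 (SD, n = 6) in saline, 7.06 ± 0.58 (SD, n = 4) in non-dissected and 4.61 ± 0.63 (SD, n = 3) in dissected aortas, and was lower in dissected than in non-dissected aortas (-2.45, adjusted p = 0.0268).

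**Figure D5:**
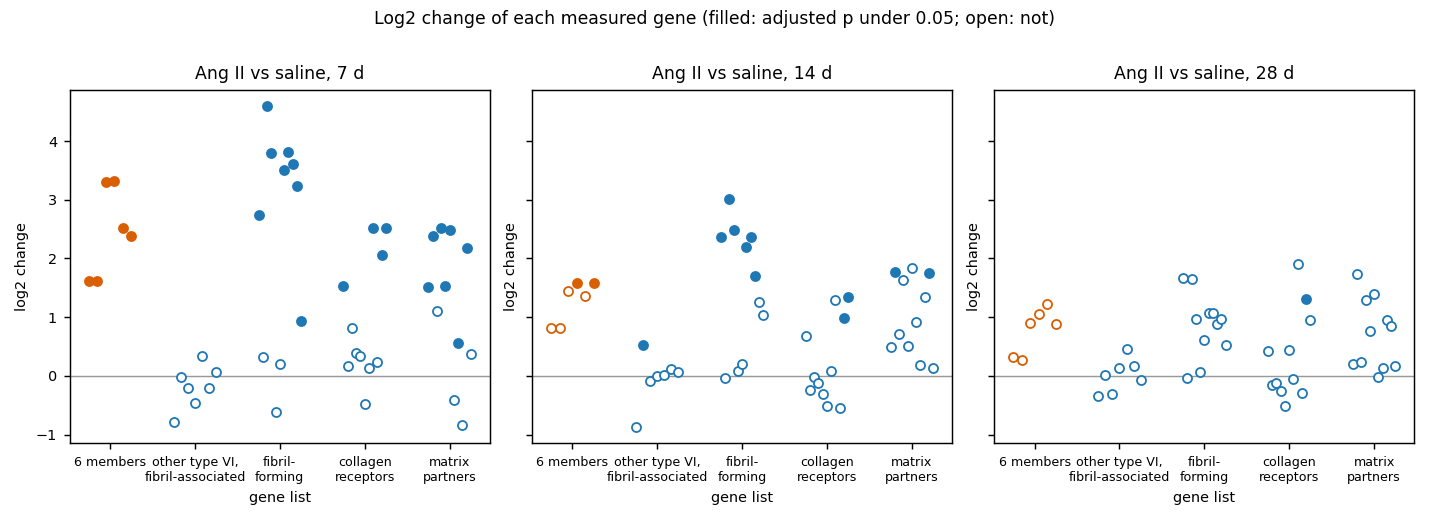
Log2 change, Ang II minus saline (vertical axis), of the 6 genes (orange) and of every measured gene of 4 related lists (blue), by list (horizontal axis), with 1 panel each for 7, 14 and 28 days; a point is 1 gene, and filled points passed at an adjusted p under 0.05. Fibril-forming chains such as Col1a1 (4.59 at 7 days) reach beyond the 6 genes, and the other type VI and fibril-associated chains lie between -0.79 and 0.34 at 7 days.

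Markers of several cell types also passed in the same comparisons. Of 18687 genes, 5069 passed at 7 days, 2712 of them higher. For dissected against saline aortas 6819 passed, 3526 of them higher. At 14 days 449 passed, 210 of them higher, and at 28 days 168, 156 of them higher. A count near these shares is not read as a shift of a cell type. Of the fibroblast list, 9 of 14 were higher at 7 days and 1 lower, and the mean log2 ratio of the list ran from -0.045 to 1.59 in saline aortas, from 1.83 to 2.34 in Ang II aortas and from 0.86 to 1.43 in dissected aortas. The macrophage list was higher for 13 of 14, with ranges of -0.43 to 0.41 in saline and 1.91 to 2.70 in Ang II aortas. Of the list for chromaffin cells and sympathetic neurons, which lie beside the aorta, 10 of 13 were lower at 7 days, with ranges of 0.81 to 4.31 in saline and 0.05 to 2.34 in Ang II aortas. Contractile smooth muscle genes were higher for 1 of 12 and lower for 0 at 7 days, and in dissected against saline aortas lower for 2 of 12. Other lists with calls at 7 days were those of brown (4 of 11 lower) and white adipocytes (3 of 11 lower), Schwann cells (4 of 10 lower) and adrenal cortex (1 of 8 lower), and none of endothelium, lymphocytes, kidney, hepatocytes, skeletal muscle or erythroid cells had any. At 14 days kidney tubule genes were lower for 4 of 8, with ranges of -0.028 to 2.56 in saline and -0.16 to 0.087 in Ang II aortas, macrophage genes higher for 2 of 14 and fibroblast genes for 1 of 14. At 28 days macrophage genes were higher for 6 of 14, with ranges of -0.20 to 0.74 in saline and 1.13 to 2.23 in Ang II aortas. In dissected against saline aortas they were higher for 13 of 14 (2.07 to 2.98 in dissected aortas), and fibroblast genes were higher for 2 of 14 and lower for 1. The part of these shifts in the levels of the 6 collagen genes was not tested.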

How the data were processed

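The 6 genes and the gene lists were chosen with earlier results of these data known. Per the labels, aorta RNA carried Cy5 after linear amplification and universal mouse reference RNA carried Cy3 by direct reverse transcription, without dye swap, and the dyes set the direction of every ratio. The deposited scanner files give, for each spot, an intensity and a local background in both channels and a log10 ratio, all computed by the scanner software, per the file headers. The submitters' processing notes name that software as Agilent Feature Extraction 9.5.3.1. Values in the authors' series table are log2 ratios, aorta over reference, as shown by a slope of 3.32 to 3.34 against the scanner's log10 ratio. Further normalization by the authors is not given in the sources used here.

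Background was subtracted by normexp (offset 50) and log2 ratios were normalized by loess within arrays, with no weight for control or non-uniform spots. Of 45018 spots 1639 were controls. Spots with an outlier mark were dropped, at a cost of values for 135 genes but none for the 6. Spots of a probe were averaged. Testing took the 27846 probes whose aorta signal stood well above background on 3 or more arrays, and the brightest probe stood for a gene. Probes were named through their accession (24375), a current symbol (6301) or an older symbol (2426) in a RefSeq list of genes, and 8072 kept the file's name. One limma model (R 4.3.3, limma 3.58.1, statmod 1.5.0 and version 1.17.8 of data.table) with 7 group means was fitted to 35 arrays, with 28 residual and 2.705 prior degrees of freedom. P-values were adjusted by Benjamini-Hochberg over all genes.

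Groups came from the sample titles. Each array is 1 aorta per the labels, so p-values reflect the spread between mice, and precision is limited by how many arrays a group has. Named genes were all 6 with every probe, all measured other type VI and fibril-associated chains, up to 4 called genes of each related list with the largest change at 7 days, and for each of the 6 genes the 3 genes with the highest r. The model was tested on simulated data with 100 genes changed per size among 18552. At a log2 change of 1 it called 75 percent at 7 days, 73 at 14 and 75 at 28. It called 62 percent for dissected against saline and 63 for dissected against non-dissected aortas. The changed genes were drawn at random, each with its own spread, so these shares need not hold for the 6 genes. The simulated data held no effect of scan day and gave each gene the same spread in all groups. Far fewer genes were changed in them than the 5069 called at 7 days, so the shares need not hold for the real comparisons either. At 14 days the SE was 0.55 for Col6a3 and 0.58 for Col14a1. Alternatives covered background, normalization, the aorta channel alone, the deposited log2 ratios, filters, probe choice, slide (11 slides), scan day, a replicate block, the groups in the fit, array weights and each array left out.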

Additional observations from a re-analysis of the deposited data

Results flagged for a closer look

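For Col14a1 the saline array of 7 days numbered 5 stood at a log2 ratio of 2.51, and the nearest of the other 5 stood at 4.85. The gap was 0.723 of the range of the group, above the critical value that Dixon's test sets for a group of this size. It was the only one of 36 gene and group combinations to pass this limit, and chance passes about 1 in 20.

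The effect of Ang II on Col12a1 differed between times by the test of the difference itself. It was lower at 28 than at 7 days (-2.26, limma adjusted p = 5.89e-03), but passed within neither scan day (-1.86 and -2.71). Col12a1 was higher in Ang II aortas by 3.32 at 7 days and by 1.06 at 28 days, and the latter did not pass.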

How the results depend on the processing

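Counts here are genes of the 6 that passed. Except where given below, they are not set against the share of all genes in the same setting. They show only how the calls depend on the processing. At 7 days 6 passed, with each array left out too (6 to 6), but 3 under scale normalization between arrays and 2 within scan day 2. At 14 days (2 passed), 0 did under median centring, scale normalization and within scan day 1 or 2, 1 to 2 with arrays left out, and 3, Col14a1 added, without background subtraction and with only the groups compared. At 28 days (0 passed), 1 did without background subtraction, with the scanner's processed signals, with the aorta channel alone and with the deposited log2 ratios, 2 under scale normalization, and 0 to 1 with arrays left out. For dissected against saline aortas (3 passed), 1 did under median centring, 0 under scale normalization, 5 within scan day 2, 5 with array weights, and 2 to 4 with arrays left out. Col14a1 was added to the 3 without background subtraction, with processed signals and with the deposited log2 ratios, and Col6a3 with scan day as a block. For dissected against non-dissected aortas (1 passed), 2 did with processed signals, deposited log2 ratios or the replicate block, 3 under median centring, with only the groups compared or array weights, 0 under scale normalization and within scan day 2, and 1 to 1 with arrays left out. For the effect at 14 against 7 days (0 passed), 1 did with processed signals, the aorta channel alone, the deposited log2 ratios, a filter of 18 arrays, the mean over probes, slide as a random block, the replicate block or only the groups compared, 2 with array weights, and 0 to 1 with arrays left out. For 28 against 7 days (1 passed), 2 did without background subtraction or with the aorta channel alone, 0 under median centring, scale normalization and within scan day 1, 4 with array weights, and 1 to 4 with arrays left out. Within scan day 2 the count of 1 was Col6a3 (-4.21) in place of Col12a1 (-2.71, adjusted p = 0.0812). The count for 28 against 14 days held in all 39 alternatives, and the saline arrays had 1 call under scale normalization. No call of a gene turned its direction in any alternative run. The cause was not tested, except that fits within a scan day hold fewer arrays.

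Over all genes, 5069 passed at 7 days, 1562 under median centring, 879 under scale normalization, 3221 with slide as a fixed block, 7905 with array weights and 199 within scan day 2. At 14 days 449 passed, 121 under median centring and 6 under scale normalization, and at 28 days 168, 67 and 4115. For dissected against saline aortas 6819 passed, 3526 of them higher, against 6311 and 872 under median centring. Replicate numbers do not pair the aortas: deviations of same-numbered arrays had a median correlation of 0.05 (-0.40 to 0.66, 91 pairs), against -0.02 for others, and with the replicate block 6, 2 and 0 of the 6 genes passed at 7, 14 and 28 days and 3 for dissected against saline aortas.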
